A study of Caenorhabditis elegans with 2 samples.

Results

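The axon guidance and adhesion genes described here are 38 genes of Caenorhabditis elegans that encode guidance cues, their receptors, the intracellular proteins those receptors act through, and cell adhesion and matrix proteins. They were given as a list by name, and all 38 matched a protein-coding gene of the annotation, out of 19985 protein-coding genes in all. Chromatin immunoprecipitation and sequencing (ChIP-seq) had been run on whole late embryos of hermaphrodite strain OP315, collected 5 hours after synchronization by bleaching eggs. The worms stably carried the LIM homeodomain protein CEH-14 with GFP and FLAG at its C-terminus, and an anti-GFP antibody recovered the sonicated chromatin. There was 1 group with 2 biological replicates of 1 transgenic line, and no untagged or input library was analysed here, so nothing could be compared between conditions and no test was made. Chromatin came from whole embryos, so weak binding in many cells and strong binding in few cells cannot be told apart.

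Growing axons steer by secreted and membrane-bound cues. Netrin and Slit act along the dorsoventral axis through the receptors UNC-40, UNC-5 and SAX-3, ephrins act through the Eph receptor VAB-1, and semaphorins act through plexins. Receptors reach the cytoskeleton through Rac GTPases, their exchange factors and actin regulators, while immunoglobulin, cadherin, integrin and dystroglycan proteins hold cells to each other and to the matrix. CEH-14 is known for its role in the identity of a number of neurons, among them the AFD, ALA and BDU neurons.

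Most of these genes had an entry somewhere in their window, but few had a strong one. The strong ones lay at 4 of 8 intracellular effectors, 1 of 7 immunoglobulin genes, 2 of 3 cadherins and 1 of 4 matrix genes and matrix receptors, and at none of the 16 genes of the netrin, ephrin and semaphorin groups. The effectors include unc-73, whose summit lay nearest to the start of another gene, F55C7.2. The groups are small, their windows differ in length and the difference between them was not tested. Binding was read from 2 deposited lists made from both replicates. The first holds 1681 IDR peaks (irreproducible discovery rate, which keeps peaks that the replicates rank alike), and the second is a pooled list of 21766 entries that also holds background regions. The IDR peaks were the 1681 strongest pooled entries, so a pooled rank of 1681 or lower marks an IDR peak. An IDR summit lay within 1000 bases of a transcript start at 3 of the 38 genes (7.89%, Wilson 95% interval 2.72 to 20.8%), against 6.82% of all protein-coding genes, a share near the background. With the window from 5000 bases upstream through the gene body, 8 of 38 had one (21.1%, interval 11.1 to 36.3%), against 13.7%. A pooled summit lay within 1000 bases of a start at 23 of 38 (60.5%, against 42.1%) and in the wider window at 36 of 38 (94.7%, against 70.3%). These genes had a median of 2 annotated starts, against 1 for all genes, and more starts give more room for a summit near one. Their wider windows were also longer, with a median of 13707 bases against 7026, which gives more room too. Among genes of like window length, their IDR share was below that of all genes in each class under 25000 bases and above it in the longest class. The intervals cover counting error only, and read depth is unknown because the lists give no read numbers.

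**Figure D1:**
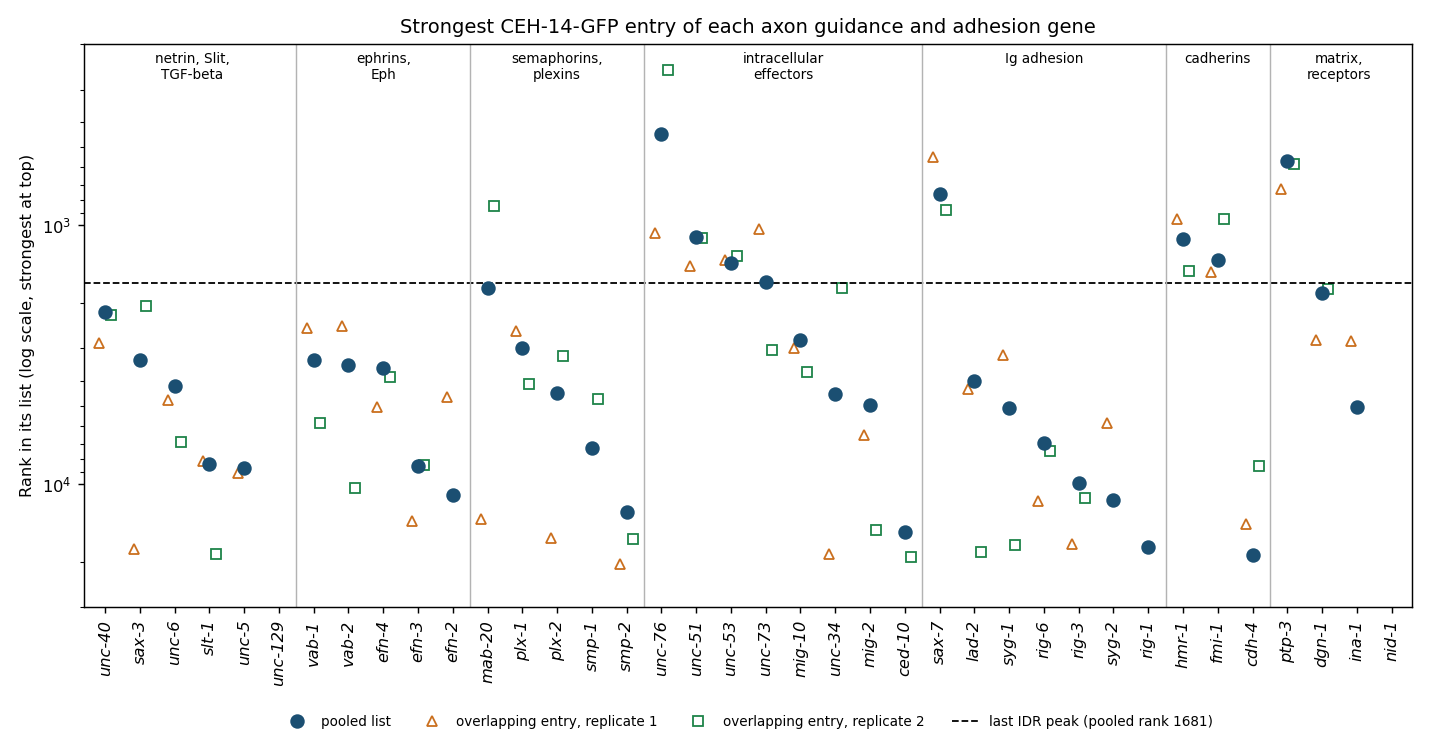
Rank of the strongest pooled entry of each of the 38 genes (filled circles) and of the entry that overlaps it in the list of replicate 1 (triangles) and replicate 2 (squares), on a log axis with the strongest at the top, by role. The dashed line marks the last IDR peak at pooled rank 1681, and unc-76, unc-51, unc-53, unc-73, sax-7, hmr-1, fmi-1 and ptp-3 sit at or above it, while unc-129 and nid-1 have no entry.

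Of the 8 intracellular effectors, 4 had an IDR peak in the wider window, against 13.7% of all genes: unc-76, unc-51, unc-53 and unc-73. The unc-73 summit lay nearest to the start of F55C7.2 and need not belong to unc-73. The strongest belonged to unc-76, which encodes a FEZ-family protein needed for axon bundling and elongation. Its upstream region held 2 overlapping peaks with summits 264 and 64 bases before the most upstream start, with signal values (the authors' measure of peak strength, not comparable between lists) of 131.8 (rank 445) and 97.3 (rank 961). In each replicate both had the same strongest overlapping entry. Its signal value was 43.7 (rank 1077) in replicate 1 and 90.9 (rank 252) in replicate 2, so it stood higher in replicate 2. The summit of this entry lay nearer to the first peak in each replicate. A separate replicate value for the second peak is not given here. UNC-51 is a serine/threonine kinase of the ULK/Atg1 family that works with UNC-76 and also in autophagy. Its gene had a peak 1452 bases upstream of its only start, with a signal value of 89.9 (rank 1115) in the pooled list, 38.4 (rank 1447) in replicate 1 and 50.5 (rank 1120) in replicate 2.

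Some of the remaining strong peaks lay deep inside long genes. unc-53 encodes a NAV2-related cytoskeletal protein of cell migration. Its peak lay in an intron of 2078 bases, 16735 bases downstream of the 5' end of the gene and 1818 bases upstream of an internal start. The signal value was 80.2 (rank 1404), with 39.5 (rank 1364) in replicate 1 and 46.9 (rank 1322) in replicate 2, nearly the same rank in each. The receptor tyrosine phosphatase gene ptp-3, of the LAR family, had the second strongest peak of the 38 genes. It lay in an intron of 7406 bases, 15220 bases into the gene and 2748 bases upstream of the start of transcript C09D8.1b.1, with a signal value of 121.5 (rank 567), and with 51.9 (rank 726) in replicate 1 and 66.5 (rank 581) in replicate 2.

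The L1-family adhesion gene sax-7, which maintains the positions of neurons and axons, had 2 overlapping peaks at an internal start. Their summits lay 160 bases upstream of the start of transcript C18F3.2a.1 (signal value 107.5, rank 763) and 57 bases downstream of it (84.2, rank 1276). This transcript has a coding length of 3432 bases, against up to 3993 for the transcripts that start upstream of the first of these summits. SAX-7 is known to occur in a long and a short form that differ in their immunoglobulin domains. In each replicate both peaks had the same strongest overlapping entry, with 58.8 (rank 545) in replicate 1 and 55.7 (rank 879) in replicate 2. The summit of this entry lay nearer to the first peak in each replicate. A separate replicate value for the second peak is not given here. The flamingo cadherin gene fmi-1, which guides pioneer and follower axons, had a peak 2045 bases upstream of its 5' end (81.5, rank 1362) and a further peak in an intron 474 bases upstream of the start of transcript F15B9.7b.1 (76.5, rank 1536). The upstream peak had 37.7 (rank 1524) in replicate 1 and 53.7 (rank 950) in replicate 2. The intronic peak had 35.1 (rank 1761) and 34.3 (rank 2486), so it fell below the 1681 strongest entries in each replicate alone.

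The sequences around 6 of these summits are shown as examples with the hexamer GAGAGA (unc-76, unc-51 and ptp-3) and without it (the stronger sax-7 peak and unc-53). They include the 5 strongest of the 11 IDR peaks, and the unc-53 peak is weaker than 3 that are not shown. Each runs 5' to 3' on the strand of its gene, up to 100 bases on either side of the summit and without untranslated sequence, in ce11 coordinates from the RefSeq copy of the WBcel235 assembly. Capitals mark the hexamer GAGAGA, the homeodomain-type hexamer TAATTA and its variant TAATTG, each on either strand, and overlapping matches merge. The printed sax-7 sequence holds none and so has no capitals. The weaker, overlapping sax-7 peak is not printed, and it did have GAGAGA within 50 bases of its summit.
unc-76 distal peak, chrV:15071396-15071596, plus strand: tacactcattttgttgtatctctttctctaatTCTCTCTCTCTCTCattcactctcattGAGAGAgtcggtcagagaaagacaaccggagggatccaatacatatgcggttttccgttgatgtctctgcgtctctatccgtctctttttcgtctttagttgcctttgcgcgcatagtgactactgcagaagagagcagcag
unc-76 proximal peak, chrV:15071596-15071759, plus strand: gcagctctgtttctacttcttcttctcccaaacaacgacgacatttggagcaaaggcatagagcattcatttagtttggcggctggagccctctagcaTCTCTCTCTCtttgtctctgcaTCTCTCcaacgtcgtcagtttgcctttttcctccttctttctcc
unc-51, chrV:20005837-20006037, minus strand: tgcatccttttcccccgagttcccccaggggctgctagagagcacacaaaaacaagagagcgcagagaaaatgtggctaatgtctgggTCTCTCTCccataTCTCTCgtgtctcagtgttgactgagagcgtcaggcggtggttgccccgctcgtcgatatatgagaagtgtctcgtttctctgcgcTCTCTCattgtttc
ptp-3, chrII:10990659-10990859, plus strand: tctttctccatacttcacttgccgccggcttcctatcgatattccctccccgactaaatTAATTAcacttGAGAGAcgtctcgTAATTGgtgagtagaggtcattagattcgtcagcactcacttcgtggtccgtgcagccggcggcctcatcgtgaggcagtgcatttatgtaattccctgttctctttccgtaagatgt
sax-7, chrIV:8066605-8066805, plus strand: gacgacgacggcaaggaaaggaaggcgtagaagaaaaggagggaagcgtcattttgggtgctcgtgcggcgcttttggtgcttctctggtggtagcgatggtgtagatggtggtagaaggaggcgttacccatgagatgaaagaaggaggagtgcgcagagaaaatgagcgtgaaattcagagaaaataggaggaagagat
unc-53, chrII:11072621-11072821, minus strand: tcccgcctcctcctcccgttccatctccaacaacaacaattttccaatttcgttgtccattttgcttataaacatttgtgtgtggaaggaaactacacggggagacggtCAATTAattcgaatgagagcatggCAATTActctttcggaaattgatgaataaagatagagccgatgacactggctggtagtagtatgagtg

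GAGAGA was present at most of these summits, and the homeodomain core TAATTA at few. Within 50 bases of the summit, GAGAGA on either strand was present at 7 of the 11 IDR peaks of these genes (63.6%), against 25.7% of all 1681 IDR peaks. Within 100 bases, the width of the printed sequences, it was again 63.6%, against 40.9%, a smaller difference. The 2 unc-76 peaks overlap each other, as do the 2 of sax-7, so these 11 peaks form 9 separate regions. TAATTA, a core that LIM homeodomain proteins can bind, was present at 1 of 11 peaks, that of ptp-3, against 5.89% of all IDR peaks, and within 100 bases at 2 of 11 (18.2%), against 11.2%. TAATTG was present within 50 bases at 2 of 11, those of ptp-3 and unc-53, against 6.96%, and within 100 bases again at 2 of 11, against 13.2%. The ptp-3 summit was the only one of the 11 with all 3 hexamers within 50 bases. GC content within 50 bases was 50.4 ± 4.90% (SD, n = 11 peaks), against 47.8 ± 8.73% (SD, n = 1681). Over the 278 pooled entries of these genes, GAGAGA was present within 50 bases at 11.5%, against 11.5% of all 21766 pooled entries, and within 100 bases at 25.5%, against 20.1%. TAATTA was present within 50 bases at 7.91%, against 8.64%, and within 100 bases at 11.5%, against 15.2%. A match in these windows is a description of letters and not of a bound site.

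On chromosome I, hmr-1 and unc-73 had 1 IDR peak each. HMR-1 is the classical cadherin of the worm, and its gene is the longest of the 38, at 58913 bases. Its peak lay in an intron of 18116 bases, 38797 bases into the gene and 1344 bases upstream of the start shared by transcripts W02B9.1a.1 and W02B9.1a.2. These have a coding length of 3807 bases, against 8760 for the transcript that starts at the 5' end. A shorter HMR-1 form is known from epithelia and a longer form from neurons. The signal value was 89.2 (rank 1136), with 46.3 (rank 945) in replicate 1 and 44.02 (rank 1501) in replicate 2. UNC-73 is the worm's Trio exchange factor, which activates Rac GTPases. Its peak was the weakest of the 11 in the pooled list, with a signal value of 73.3 (rank 1667). It had 44.2 (rank 1042) in replicate 1 and 31.5 (rank 3039) in replicate 2. The summit lay inside F55C7.2, a protein-coding gene on the opposite strand within an unc-73 intron, 347 bases from its start, so it need not belong to unc-73.

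The IDR peaks inside gene bodies lay mostly before an internal start. Of the 11 peaks, 4 had summits upstream of the whole gene and 7 had summits inside it, and for 5 of these 7, in 5 genes (unc-53, sax-7, fmi-1, hmr-1 and ptp-3), the nearest start of the same gene lay downstream. Among all IDR summits inside genes with 2 or more starts the share was 166 of 373 (44.5%). This count was made after the positions had been seen. None of the 11 summits lay within 200 bases of a tRNA, snoRNA or snRNA gene.

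**Figure D2:**
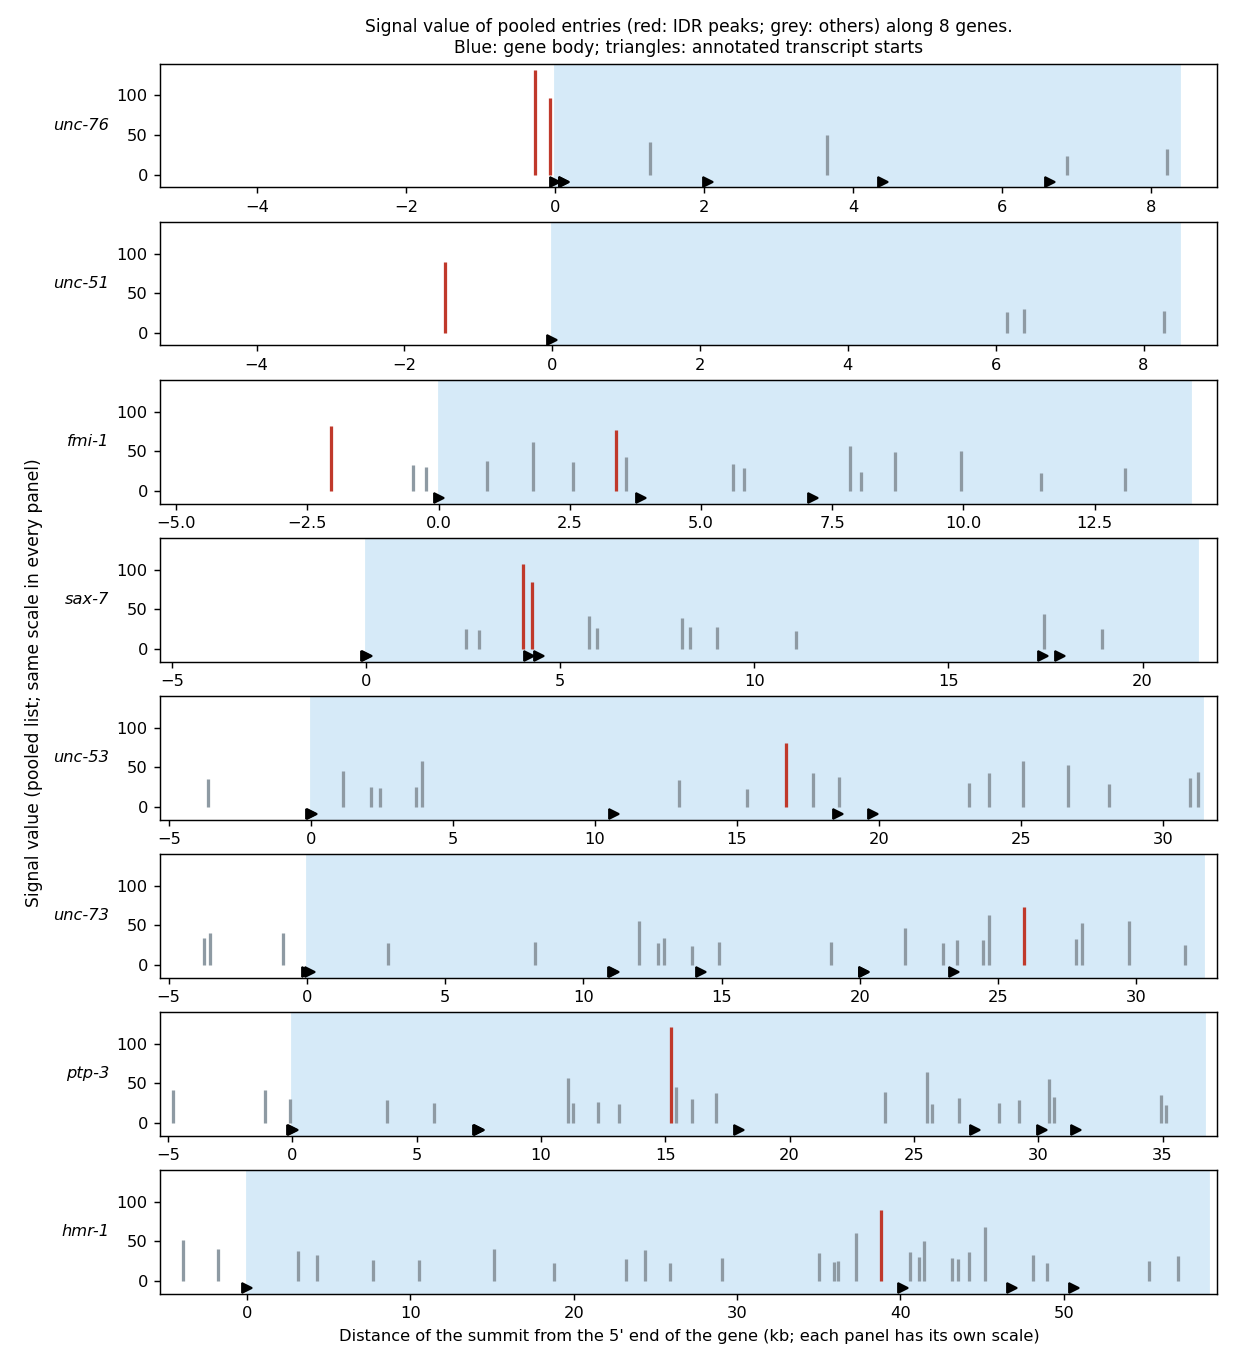
Signal value of every pooled entry along the 8 genes with an IDR peak, by distance of the summit from the 5' end of the gene in kb. The distance axis differs between panels and the signal axis is the same. Red lines are IDR peaks and grey lines are weaker entries, the blue area is the gene body and triangles are annotated starts. The red lines of sax-7, hmr-1, unc-53 and ptp-3 stand inside the gene to the left of an internal start.

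Netrin, Slit and TGF-beta cues and their receptors had no IDR peak at any of 6 genes, against 13.7% of all genes. Pooled entries were present at 5 of 6, against 70.3% of all genes. So few genes cannot show a difference from these shares. The strongest belonged to unc-40, the netrin receptor of the DCC family, 264 bases upstream of its start, with a signal value of 65.0 (rank 2166) in the pooled list, 28.3 (rank 2855) in replicate 1 and 35.9 (rank 2236) in replicate 2. For unc-6, which encodes netrin, the strongest entry lay 149 bases upstream of its start, with 47.0 (rank 4185), and with 23.1 (rank 4746) in replicate 1 and 22.4 (rank 6875) in replicate 2. The Robo receptor gene sax-3 had 12 pooled entries, the strongest in an intron 727 bases downstream of a start and 687 bases from the start of ZK377.15 (52.2, rank 3325). It was weak in replicate 1 (13.5, rank 17941) and stronger in replicate 2 (37.6, rank 2051). The Slit gene slt-1 had 1 entry, of rank 8392, and the repulsive netrin receptor gene unc-5 had 6, the strongest of rank 8694 with no overlapping entry in replicate 2. unc-129, a TGF-beta family ligand gene that works with netrin in motor axon guidance, had no pooled entry and no entry in replicate 2, while replicate 1 held 2, the stronger of rank 7541.

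Ephrin and Eph receptor genes had pooled entries at 5 of 5, against 70.3% of all genes. They had no IDR peak, against 13.7% of all genes, and so few genes cannot show a difference from these shares. The strongest entries of vab-1 (the Eph receptor), vab-2 and efn-4 (ephrins) ranked 3339, 3480 and 3577, close to each other. The vab-1 entry lay in an intron 2653 bases downstream of its start, with 30.0 (rank 2514) in replicate 1 and 23.9 (rank 5814) in replicate 2. efn-4 had 12 entries in a window of 13914 bases, the highest density of the 38 genes at 86.2 summits per 100 kb, and 8 of them lay in 1 intron of 6146 bases. In the list of replicate 1, efn-4 had an entry of rank 1631, within the 1681 strongest. The short genes efn-2 and efn-3 had strongest entries of rank 11018 and 8510.

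Among the semaphorins and plexins, mab-20 came closest to the IDR peaks and depended on replicate 2. MAB-20 is a secreted semaphorin that keeps apart cells of the epidermis and the male tail. Its entry lay 6 bases upstream of a start, with a signal value of 71.3 (rank 1761), just outside the IDR peaks, whose last members among these genes had 73.3 (unc-73) and 76.5 (fmi-1). It had 56.4 (rank 849) in replicate 2 but 15.3 (rank 13713) in replicate 1, the largest ratio of ranks among the 29 genes met in both replicates. The plexin genes plx-1 and plx-2 had strongest entries of rank 2992 and 4455, both upstream of the gene, at 1466 and 4730 bases. The membrane semaphorin genes smp-1 and smp-2 ranked 7251 and 12840.

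The other effectors and the other adhesion and matrix genes had weaker entries. mig-10, which encodes a lamellipodin-family protein of axon outgrowth, had 13 entries, the strongest in an intron of 11678 bases with 56.7 (rank 2794), and with 27.8 (rank 2998) in replicate 1 and 28.9 (rank 3704) in replicate 2. unc-34, the worm's Ena/VASP gene, had its strongest entry in intergenic sequence upstream of the gene, nearer to the start of Y50D4C.12 at 3590 bases, with 45.6 (rank 4492), high in replicate 2 (40.8, rank 1753) and low in replicate 1 (13.2, rank 18671). The Rac genes mig-2 and ced-10 ranked 4979 and 15347, and the mig-2 entry was nearer to the start of selt-1.1, at 232 bases. Of the 7 immunoglobulin genes, sax-7 alone had an IDR peak, against 13.7% of all genes. For the others, the strongest entries of lad-2, syg-1, rig-6, rig-3, syg-2 and rig-1 ranked 4019, 5088, 6935, 9897, 11614 and 17549, and that of rig-1 overlapped no entry in either replicate. Each replicate held another entry within 1000 bases of a rig-1 start, of rank 7112 in replicate 1 and 8676 in replicate 2. The Fat-like cadherin gene cdh-4 had 1 entry, of rank 18848, in a window of 21638 bases.

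Among matrix genes, dgn-1, which encodes dystroglycan, ranked next after the genes with an IDR peak and mab-20. It lay in an intron 1654 bases downstream of a start, with 69.8 (rank 1832), and with 28.6 (rank 2793) in replicate 1 and 40.7 (rank 1774) in replicate 2. The integrin alpha gene ina-1 ranked 5069, with an overlapping entry in replicate 1 (28.5, rank 2814) and none in replicate 2. nid-1, which encodes the basement membrane protein nidogen, had no pooled entry, and 1 entry of rank 13447 in replicate 1.

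The replicates largely chose the same genes for the strongest entries. The 1681 strongest entries of a single replicate were also used in place of the IDR peaks. In the wider window 9 of 38 genes then had a summit in replicate 1 (against 13.4% of all genes) and 8 of 38 in replicate 2 (against 13.5%). The genes fmi-1, hmr-1, ptp-3, sax-7, unc-51, unc-53 and unc-76 were in both sets and among the IDR genes. unc-73 and efn-4 were in the set of replicate 1 only, and mab-20 in that of replicate 2 only. The strongest pooled entry overlapped an entry of both replicates at 29 of the 36 genes with one (80.6%), against 63.0% of the 14048 genes with a pooled entry. It overlapped an entry of replicate 1 only at 4 genes (unc-5, efn-2, syg-2 and ina-1), of replicate 2 only at 2 (smp-1 and ced-10), and of neither at rig-1. The strongest entries of these genes had a median pooled rank of 4102, against 6153.5 for all genes with one. The strongest was here picked from more entries, a median of 6 per gene against 1 for all genes. More entries alone can give a better best rank. Whether the higher share of overlap is tied to rank or to the number of entries was not tested. The IDR and pooled lists derive from these same replicates, so the agreement is a description and no separate check.

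These genes are long, and entries were dense along them. Their median length was 8707 bases, against 2026 for all protein-coding genes, and 60.5% had more than 1 annotated start, against 27.4%. The median number of pooled summits in the wider window was 6, against 1. hmr-1 had 28, and no protein-coding gene had more. ptp-3 had 23 and unc-73 had 21, exceeded by 2 and 5 genes. Per length, the merged windows of the 38 genes held 39.0 pooled summits per 100 kb, against 22.1 for the merged windows of all genes. Neighbouring entries often overlap, and with overlapping entries merged the densities were 32.1 and 19.2. The density was 35.4 in the list of replicate 1, against 21.6, and 36.2 in that of replicate 2, against 19.9. Without hmr-1 it was 38.5. It was above 22.1 at 28 of 38 genes and ranged from 0 to 86.2. The share of all genes above 22.1 is not given here. The median over single genes was 39.0, against 16.4 for all genes. For IDR peaks the density was 1.54 summits per 100 kb, against 1.73 for all genes. The direction for IDR peaks was the same in most settings but not in all. With the 1681 strongest entries of replicate 2 alone the density was 1.54 against 1.72, and with 2000 bases upstream 1.67 against 1.73. With overlapping peaks merged it was 1.26 against 1.64. In windows under 10000, of 10000 to 15000 and of 15000 to 25000 bases it was 0.0 against 1.74, 1.60 against 2.19 and 1.15 against 1.88. The direction turned with the 1681 strongest entries of replicate 1 alone (1.96 against 1.73) and in windows of 25000 bases or more (1.97 against 1.52).

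Window length was tied to both counts. Of windows under 10000 bases, 0 of 6 of these genes had an IDR summit, against 11.8% of all genes of that length, and 5 of 6 had a pooled summit, against 66.4%. From 10000 to 15000 bases it was 2 of 15 (against 22.0%) for IDR summits and 14 of 15 (against 88.0%) for pooled summits. From 15000 to 25000 bases it was 1 of 9 (against 25.9%) and 9 of 9 (against 95.4%). At 25000 bases or more it was 5 of 8 (against 35.4%) and 8 of 8 (against 99.0%). The IDR share was thus below that of all genes in each class under 25000 bases and above it in the longest class. The pooled density of these genes was above that of all genes in each length class: 26.0 against 20.7, 34.2 against 24.6, 41.3 against 25.2 and 42.6 against 26.7 summits per 100 kb, from the shortest to the longest class. Some long members were sparse, with 6 pooled summits in the 37675 bases of unc-5 and 1 in the 21638 bases of cdh-4.

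**Figure D3:**
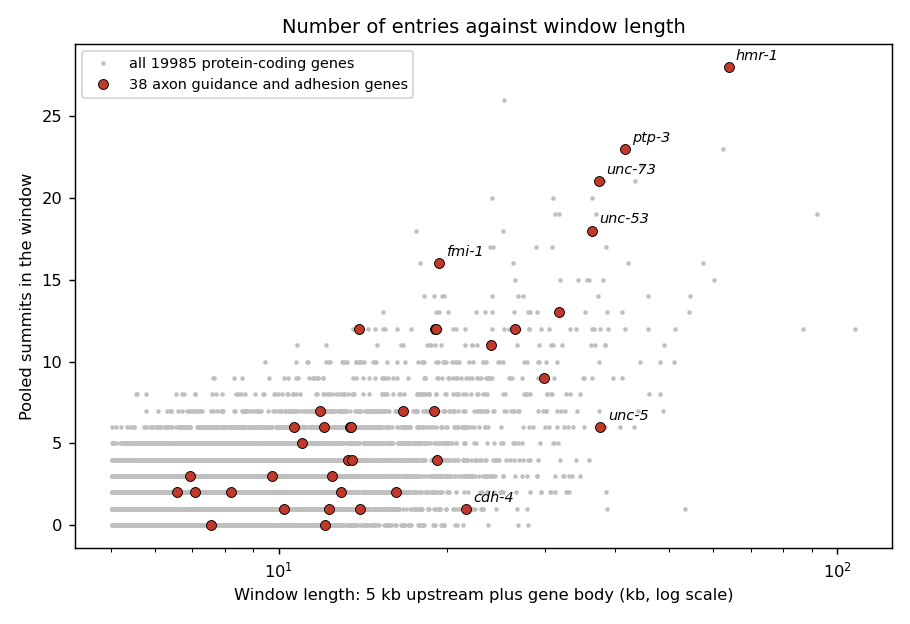
Number of pooled summits against the length of the window from 5 kb upstream through the gene body (log axis, kb) for all 19985 protein-coding genes (grey) and the 38 axon guidance and adhesion genes (red). hmr-1 has the most, with 28, while unc-5 and cdh-4 have 6 and 1 in long windows.

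Introns carried most of these entries. Of the 278 pooled entries, 163 (58.6%) had a summit in an intron, against 32.8% of the pooled entries in the windows of all genes. Introns also make up more of these windows, 51.2% of their bases against 35.7%. Per 100 kb of intron, these genes held 44.7 pooled summits, against 20.4 for all genes, with 37.3 against 19.7 in replicate 1 and 40.8 against 17.8 in replicate 2. The pooled density was above that of all genes in every other class as well. In the 1000 bases upstream of starts it was 41.9, against 33.6, and in coding exons 23.4, against 16.6. In untranslated regions it was 50.7, against 27.7, and in other intergenic sequence 35.4, against 21.3. In exons of non-coding genes it was 48.3, against 40.1. Of the 11 IDR peaks, 6 lay in introns, 2 in the 1000 bases upstream of a start, 2 in other intergenic sequence and 1 in an untranslated region. For all IDR peaks in gene windows, 20.2% lay in introns and 44.3% in upstream sequence. Of the 278 entries, 223 (80.2%) lay over 1000 bases from every start of their gene. The same share for the entries of all genes is not given here. Single introns held several entries: the 18116-base intron of hmr-1 held 9 and the 7406-base intron of ptp-3 held 8. Whether the density is tied to accessible chromatin or to mapping was not tested.

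**Figure D4:**
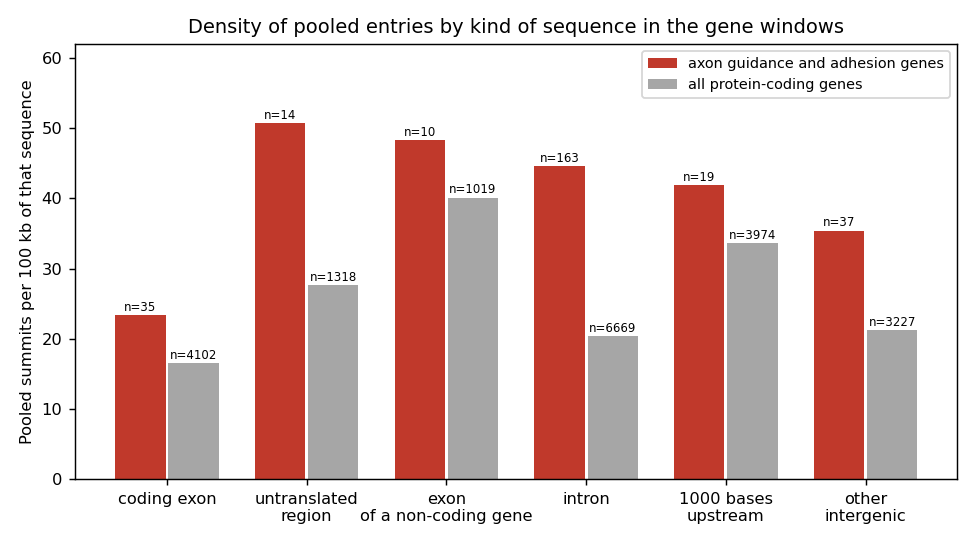
Pooled summits per 100 kb of each kind of sequence in the merged windows of the 38 genes (red) and of all protein-coding genes (grey), with the number of summits above each bar and no error bars because each bar is a single count. The red bar for introns, 44.7, stands above the grey bar, 20.4, and the bars for exons of non-coding genes, 48.3 and 40.1, lie closer together.

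Other genes of the same processes, taken from a list of 69, were described in the same way. In the wider window 15 of 69 had an IDR peak (21.7%, against 13.7% of all protein-coding genes and beside 21.1% of the 38), and 9 of 69 had one within 1000 bases of a start (against 6.82% of all genes, and beside 3 of the 38). In the wider window it was 3 of 18 matrix and proteoglycan genes (16.7%), 7 of 25 effector and cytoskeleton genes (28.0%) and 5 of 26 adhesion and receptor genes (19.2%), each beside the same 13.7%. Median windows of these groups were 14432, 11251 and 12240.5 bases, against 7026 for all genes, so they too had more room for a summit. At starts, unc-115, an actin-binding protein of axon guidance, had a peak 96 bases upstream (rank 239), and wve-1, of the WAVE actin regulatory complex, had one 613 bases upstream (rank 328). unc-14, which encodes a partner of UNC-51, had one 69 bases upstream (rank 761). The alpha-catenin gene hmp-1, whose protein joins HMR-1 to actin, had one 881 bases upstream (rank 1144). The strongest peaks of this list, at hmp-2 (rank 113), egl-17 (rank 120) and pat-3 (rank 142), are less certain. The hmp-2 and pat-3 summits were nearer to the starts of K05C4.7 and ccdc-47 than to those of the named genes, and that of egl-17 lay within 200 bases of a snoRNA, snRNA or tRNA gene.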

How the data were processed

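ChIP-seq of CEH-14-GFP in whole late embryos was given as peak lists for 2 biological replicates, which form 1 group. The deposited lists are narrowPeak intervals in ce11 with a signal value that the authors assigned to each entry, and signal values are not comparable between lists. Per the file records deposited beside them, the relaxed list of a replicate derives from its alignments and 1 further file whose kind is not stated, and the IDR peaks derive from the 2 replicate lists and the pooled list. The sources used here name no aligner, peak caller or IDR threshold. The ce10 lists were not used here, and no read depth is given.

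Genes and transcript starts came from Ensembl release 115 (WBcel235), the same sequence as ce11; no entry end passed a chromosome's length. A summit is column 2 plus column 10, given 1-based. A gene had an entry when a summit lay within 1000 bases of a start, or from 5000 bases upstream through the gene body, and a summit may count for several genes. Replicate values are those of the strongest entry overlapping by at least 1 base. Each summit went to 1 class of sequence, coding exons first, then untranslated regions, exons of non-coding genes, introns, the 1000 bases before a start and the rest. The window search was tested on simulated data. Python 3.11.15, pandas 2.3.3 and numpy 2.4.6 were used.

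The members and lists were chosen with earlier results of these data known. Given with all values were members with an IDR peak, the 10 strongest pooled entries, members with none, and the 3 with the largest ratio of ranks between replicates. No test was made. Alternatives were other windows, thresholds, overlap rules, single replicates and the nearest start.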

Additional observations from a re-analysis of the deposited data

How the results depend on the processing

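Of 33 alternatives, 23 kept the value within 1.5 times the reported count or within the spread between replicates. Counts near starts followed the window: 6 genes had an IDR summit within 2000 bases, against 3 within 1000 (9.57% of all genes). They also followed the threshold. Among the 840 strongest IDR peaks 3 genes had one in the wider window, against 8 (7.53% of all genes). Among the 5000 strongest pooled entries 10 had one near a start, against 23 (15.8% of all genes), and 22 in the wider window, against 36 (30.7%). With the single nearest start 7 of the 8 genes with an IDR peak were left, since the unc-73 summit goes to F55C7.2. The strongest pooled entry was met in both replicates at 18 genes when summits had to lie within 50 bases, against 29 by any overlap. The share of all genes under the 50-base rule is not given here. Leaving out a replicate gave 1.54 to 1.96 IDR summits per 100 kb and 35.4 to 36.2 pooled summits per 100 kb, so that with replicate 2 left out the IDR density passed that of all genes (1.73). With 2000 bases upstream the pooled density was 41.1. With overlapping entries merged, an alternative chosen after seeing the data, it was 32.1. Leaving out a replicate gave 3 genes near starts in either case (6.59 to 6.63% of all genes) and 8 to 9 in the wider window (13.4 to 13.5%). In the pooled counts it gave 23 to 25 near starts (39.8 to 41.6%) and 36 to 37 in the wider window (69.5 to 70.9%). No paired analysis was possible because there is 1 group. With 38 genes, an IDR count of 8 has a wide interval, and signal values carry no error of their own.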
